A study of Mus musculus with 8 samples.

Results

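Messenger RNA of 8 genes for BTB domain repressors was followed through 8 RNA sequencing libraries of mouse thymic ILC2. The genes were Zbtb32, Bach2, Bach1, Bcl6, Zbtb16, Zbtb7a, Zbtb7b and Patz1, which took 8 of the 50686 gene rows of the count table. They were picked by symbol after values of Zbtb32 and Bach2 in E47-ER and GFP cells were known. Every contrast of E47-ER with GFP cells is therefore given for these 8 genes as a description. Calls that the fits gave for them on this contrast are listed, and nothing is read from those calls. Group 2 innate lymphoid cells (ILC2) are lymphocytes that secrete type 2 cytokines and lack an antigen receptor on their surface. The donors were plck-Id1 transgenic C57BL/6 mice, and the cells, taken from the thymus, carried the transgene in all 4 groups. Its Lck promoter is active in thymocytes, and Id1 is an inhibitor of E proteins. Cells received the MIGR1 retroviral vector, either with E47-ER and GFP or with GFP alone, were sorted for GFP and were grown in IL-33, IL-25 and IL-7. E47-ER joins E47, an E protein made from Tcf3, to the hormone-binding part of the estrogen receptor, which 4-hydroxytamoxifen activates. Every group was given this drug before harvest: E47-ER cells for 16 h, GFP cells for 16 h, E47-ER cells for 4 h and GFP cells for 4 h, with 2 libraries each. There was no E47-ER library without the drug, so a difference already present before the drug was given cannot be told apart from a later one.

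The BTB (or POZ) domain lets proteins pair and holds corepressors such as NCOR1 and BCOR, which bring histone deacetylases to DNA. In the ZBTB proteins, BCL6 and PATZ1 the domain is joined to zinc fingers, whereas BACH1 and BACH2 join it to a basic leucine zipper that binds DNA with a small MAF partner. Several of these factors direct lymphocyte fate: PLZF (Zbtb16) marks precursors of innate lymphoid cells in mice, ThPOK (Zbtb7b) directs thymocytes to the CD4 lineage, and ZBTB32, also named repressor of GATA, binds GATA3 and limits cytokine genes in activated T cells.

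The libraries held 8813782 to 18677675 counts. Replicate 2 of GFP at 16 h was the shallowest and stood apart from the other libraries: its TMM scaling factor was 0.854, against 1.01 to 1.03 elsewhere, and its mean correlation with the others across genes was 0.954, against 0.980 to 0.983. In that library genes with at most 1223 exon bases lay 0.78 above, and genes with at least 9425 exon bases 0.38 below, their level in the other libraries (medians, log2). Values that moved most without it are also given without it. Esr1 stood at 43.8 and 54.5 CPM in E47-ER cells and 0.537 and 0.932 CPM in GFP cells at 16 h, and at 52.6 and 45.6 CPM in E47-ER cells and 0.316 and 0.211 CPM in GFP cells at 4 h. Its reads include the construct, as do those of Tcf3. CPM here refer to the TMM-scaled library total. None of 13 ILC2 markers was at 0 in any library, while Ncr1 of NK cells, Foxn1 of thymic epithelium and Siglech of plasmacytoid dendritic cells were at 0 in all 8. Other genes of the same marker lists were present. Over the 8 libraries Gzma had 2887 to 7895 CPM, Epcam 5.12 to 22.2, Xcr1 42.3 to 127 and H2-Ab1 21.3 to 41.0. The sums of these lists are given under Other observations. Summed over 7 markers, B cell transcripts took 7.91 to 8.61 CPM in E47-ER and 9.40 to 15.1 CPM in GFP cells at 16 h, and 6.62 to 8.26 CPM in E47-ER and 6.58 to 7.61 CPM in GFP cells at 4 h. The 11 T cell markers summed to 399.6 to 437 CPM in E47-ER and 421 to 627 CPM in GFP cells at 16 h, and to 427 to 466 CPM in E47-ER and 421 to 449 CPM in GFP cells at 4 h. Most of the T cell sum was Lat (125 to 341 CPM over the 8 libraries) and Zap70 (223 to 255 CPM). Cd3e had 26.0 to 38.3 CPM, Cd3g 29 to 94 counts and Trac 29 to 80 counts in a library. Cd3d and Cd6 had at most 25 counts in a library, and Cd4, Cd5, Cd8a and Cd8b1 at most 6. Most of the B cell sum was Cd79b (5.75 to 12.9 CPM). The part of other cell types in the levels below was not tested.

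Zbtb7a was the most abundant of the 8 transcripts per length in each group, and Zbtb32 and Zbtb7b were the pair that stood in another order in E47-ER than in GFP cells. On the scale of CPM per kilobase of merged exon, the order in GFP cells was Zbtb7a, Zbtb32, Zbtb7b, Patz1, Bach1, Bcl6, Bach2 and Zbtb16 at both times. In E47-ER cells Zbtb7b stood above Zbtb32 at both times, and the rest of the order was alike. Zbtb7a averaged 32.5 CPM per kilobase in E47-ER and 32.5 in GFP cells at 16 h. Zbtb32 averaged 8.17 CPM per kilobase in E47-ER and 20.9 in GFP cells at 16 h, and at 4 h 9.91 CPM per kilobase in E47-ER and 20.9 in GFP cells. Neighbours in the order had separate libraries in each group except 3 pairs: Zbtb32 and Patz1 in E47-ER cells at 16 h, Bcl6 and Bach2 in E47-ER cells at 4 h, and Bach2 and Zbtb16 in GFP cells at 16 h.

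**Figure D1:**
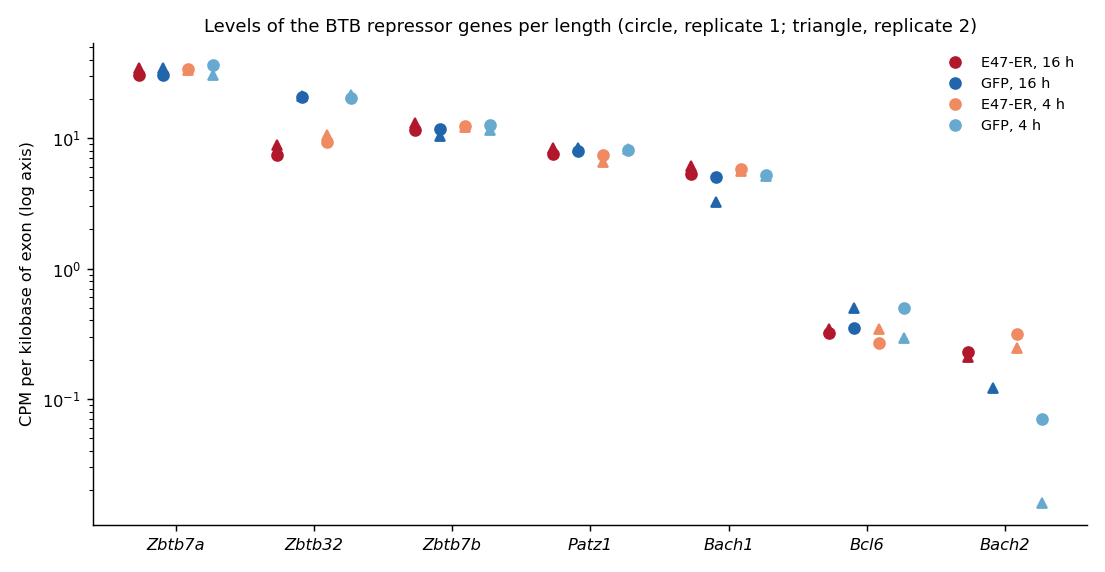
Level of 7 of the 8 genes in each library, in CPM per kilobase of merged exon on a log axis (circles, replicate 1; triangles, replicate 2; colours, groups; Zbtb16 and the library with no Bach2 count cannot be drawn on this axis). Zbtb32 lies between Zbtb7a and Zbtb7b in GFP cells and below Zbtb7b in E47-ER cells, while Bcl6 and Bach2 lie under 1 CPM per kilobase in every library.

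Zbtb32 transcripts in E47-ER cells were at less than 0.5 of their level in GFP cells at both times. The gene (ENSMUSG00000006310) lies on chromosome 7 from 30589681 to 30598909 on the minus strand of GRCm38, with 2357 exon bases that no other annotated gene overlaps. Replicates 1 and 2 had 17.5 and 21.01 CPM in E47-ER cells, against 48.7 and 49.8 CPM in GFP cells at 16 h. At 4 h they had 21.9 and 24.8 CPM in E47-ER cells, against 47.7 and 50.8 CPM in GFP cells. All 4 E47-ER libraries were below all 4 GFP libraries, and the GFP libraries lay close together across times. Within a time, groups did not overlap for 54.3% of all genes fitted at 16 h and 45.4% at 4 h. The share of genes so separated over both times together was not counted, for this or any gene below. The group means were 19.2 ± 2.49 CPM in E47-ER and 49.2 ± 0.777 CPM in GFP cells at 16 h, and 23.4 ± 1.98 CPM in E47-ER and 49.2 ± 2.24 CPM in GFP cells at 4 h (SD, n = 2 each). The fitted log2 fold change of E47-ER over GFP was -1.35 (SE 0.15) at 16 h and -1.08 (SE 0.14) at 4 h, ratios of 0.392 and 0.474. Without replicate 2 of GFP at 16 h these were -1.34 and -1.08. In bulk RNA, fewer cells with a transcript and less of it per cell cannot be told apart.

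The other BTB zinc finger genes of the set gave a scale for Zbtb32 within each library. Per length, Zbtb32 stood at 64.4 and 68.4% of Zbtb7b in E47-ER cells at 16 h, against 174.9 and 202% in GFP cells. At 4 h it stood at 74.7 and 86.5% of Zbtb7b in E47-ER cells, against 160.5 and 186.9% in GFP cells. Zbtb32 thus lay below Zbtb7b in each E47-ER library and above it in each GFP library. Zbtb32 made up 11.8 and 12.5% of the summed level per length of the 8 genes in E47-ER cells at 16 h, against 27.1 and 27.0% in GFP cells.

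Bach2 was a transcript of few counts, and more of them came from E47-ER cells. The gene (ENSMUSG00000040270) spans 32238804 to 32586108 on the plus strand of chromosome 4 and has 9940 exon bases. At 16 h replicates 1 and 2 had 34 and 36 counts (2.27 and 2.08 CPM) in E47-ER cells, against 0 and 9 counts (0 and 1.20 CPM) in GFP cells. At 4 h they had 49 and 34 counts (3.14 and 2.45 CPM) in E47-ER cells, against 11 and 3 counts (0.695 and 0.159 CPM) in GFP cells. All 4 E47-ER libraries were above all 4 GFP libraries, and no GFP library had more than 11 counts. Summed over replicates, the ratio of E47-ER to GFP was 5.39 at 16 h, with an exact 95% interval of 2.68 to 12.3, and 6.98 at 4 h, with an interval of 3.93 to 13.3. These intervals cover counting error only, and leave out the spread between libraries. Bach2 was picked on this contrast, so they are no test of it. The fitted log2 fold changes were 2.28 (SE 0.99) at 16 h and 2.75 (SE 0.89) at 4 h, with SEs many times those of Zbtb32. Without replicate 2 of GFP at 16 h the remaining GFP library of that time had no Bach2 count, and the E47-ER mean of 2.17 CPM was at least 10.8-fold higher than a floor of 3 counts in that library (0.2015 CPM). Bach2os, an antisense gene over 5.4% of the exon bases, had at most 1 count in any library. Bach2 passed the filter on low counts through its E47-ER libraries.

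The 250 bases before the RefSeq start sites of Zbtb32 and Bach2 are shown because E47 binds E boxes (CANNTG) and because these were the members with the widest spread between E47-ER and GFP cells. They were taken from RefSeq (GRCm38.p6). Capitals mark E boxes, which read the same pattern on both strands.
Zbtb32, chr7:30598910-30599159, minus strand: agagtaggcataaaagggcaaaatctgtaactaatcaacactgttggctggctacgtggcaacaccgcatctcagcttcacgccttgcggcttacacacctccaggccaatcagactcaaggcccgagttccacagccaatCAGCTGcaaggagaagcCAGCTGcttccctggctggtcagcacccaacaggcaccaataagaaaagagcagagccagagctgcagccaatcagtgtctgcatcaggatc
Bach2, chr4:32417185-32417434, plus strand: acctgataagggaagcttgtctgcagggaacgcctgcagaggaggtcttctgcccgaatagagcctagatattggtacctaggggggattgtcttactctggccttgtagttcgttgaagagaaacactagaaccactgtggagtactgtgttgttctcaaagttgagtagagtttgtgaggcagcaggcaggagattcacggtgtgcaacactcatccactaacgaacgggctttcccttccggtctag
The Zbtb32 stretch held 2 CAGCTG matches, which begin 109 and 92 bases before the start site. A second Zbtb32 window, at an inner start site, held 1 match of CANNTG, 192 bases before the start. The Bach2 window, which lies inside the gene as GENCODE draws it, held none. Of 32851 windows of 300 bases around RefSeq start sites, 72.3% held CANNTG and 16.3% held CAGCTG, so a match is common. Among the other members, CACGTG stood 60 bases before the Bcl6 start, CAGGTG 238 bases before a Zbtb7b start and CAGCTG 173 bases before a Patz1 start, and the Bach1 and Zbtb7a windows held no CANNTG. No member window held TGAGTCA, the core that AP-1 and BACH sites share, which 5.2% of all windows held. Zbtb16 had no window among those used here and was not searched.

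Both genes next to Zbtb32 on chromosome 7 were measured too. Kmt2b, a histone methyltransferase gene 955 bases away, had a log2 fold change of 0.22 (SE 0.16) at 16 h and 0.10 (SE 0.16) at 4 h. Upk1a, a gene of the urinary tract lining 4183 bases away, had -0.84 (SE 0.41) at 16 h and -0.61 (SE 0.37) at 4 h. Neither passed the test in edgeR's quasi-likelihood fit with Benjamini-Hochberg adjustment over all 13644 genes (adjusted p 0.421 and 1 for Kmt2b, 0.24 and 1 for Upk1a, at 16 h and 4 h).

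Bach1, the heme-sensitive relative of Bach2 that holds down heme and redox genes, was far more abundant than Bach2 and varied mainly through 1 library. The gene (ENSMUSG00000025612) lies on chromosome 16 from 87698945 to 87733346. It had 32.7 and 37.5 CPM in E47-ER cells, against 31.1 and 19.97 CPM in GFP cells at 16 h, and 36.0 and 34.5 CPM in E47-ER cells, against 32.4 and 31.7 CPM in GFP cells at 4 h. The lowest value came from replicate 2 of GFP at 16 h, and the other 7 libraries lay between 31.1 and 37.5 CPM. As for Bach2, all 4 E47-ER libraries lay above all 4 GFP libraries, at the closest 32.7 against 32.4 CPM. The log2 fold change was 0.44 (SE 0.20) at 16 h and 0.14 (SE 0.20) at 4 h. Without that library it was 0.17 at 16 h. Bach2 stood at 4.31 and 3.45% of Bach1 per length in E47-ER cells, against 0 and 3.73% in GFP cells at 16 h, and at 5.42 and 4.41% in E47-ER cells, against 1.33 and 0.311% in GFP cells at 4 h.

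Bcl6, the repressor that directs germinal centre B cells and follicular helper T cells, was present at 25 to 53 counts in a library. Located on chromosome 16 from 23965052 to 23988852 (ENSMUSG00000022508), it had 2.14 and 2.31 CPM in E47-ER cells, against 2.35 and 3.33 CPM in GFP cells at 16 h. At 4 h it had 1.79 and 2.30 CPM in E47-ER cells, against 3.35 and 1.96 CPM in GFP cells. At 16 h the higher E47-ER library lay just under the lower GFP library, and at 4 h the groups overlapped. The ratio of summed E47-ER to GFP levels was 0.832 (exact 95% interval 0.582 to 1.19) at 16 h and 0.784 (0.556 to 1.1) at 4 h, intervals of counting error only. The fitted log2 fold change was -0.32 (SE 0.36) at 16 h, and -0.09 there with replicate 2 of GFP left out. At 4 h it was -0.37 (SE 0.35), and its sign turned when 1 library was left out (-0.71 to 0.0615 over the 8 fits). Zbtb16 (ENSMUSG00000066687, chromosome 9 from 48654297 to 48836222) was close to absent: 1 count in replicate 2 of E47-ER at 16 h and 0 in the other 7 libraries. The 3 counts that would limit its level over all 8 libraries correspond to 0.0252 CPM. It did not pass the filter on low counts and was the 1 member not fitted.

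Zbtb7a, Zbtb7b and Patz1 were the steady members. Zbtb7a (ENSMUSG00000035011, chromosome 10 from 81135220 to 81152995), which encodes LRF, had 209 and 233.8 CPM in E47-ER cells, against 207.6 and 235.6 CPM in GFP cells at 16 h. At 4 h it had 229.6 and 226.7 CPM in E47-ER cells, against 249.1 and 207.2 CPM in GFP cells. The groups overlapped at both times, with fitted log2 fold changes of 0.00 (SE 0.14) each. Zbtb7b (ENSMUSG00000028042, chromosome 3 from 89377644 to 89394776) had 64.4 and 72.8 CPM in E47-ER cells, against 66.0 and 58.5 CPM in GFP cells at 16 h, and 69.7 and 67.9 CPM in E47-ER cells, against 70.4 and 64.5 CPM in GFP cells at 4 h. Its groups overlapped at both times too. Patz1, also named MAZR, a repressor of Cd8 and Zbtb7b in mouse thymocytes, lies on chromosome 11 from 3288874 to 3309083 (ENSMUSG00000020453). It had 44.8 and 49.3 CPM in E47-ER cells, against 46.9 and 49.3 CPM in GFP cells at 16 h, and 43.8 and 38.7 CPM in E47-ER cells, against 47.8 and 49.1 CPM in GFP cells at 4 h. Only at 4 h did its E47-ER libraries lie below the GFP libraries, with a log2 fold change of -0.23 (SE 0.13). Antisense or opposite-strand transcripts overlap 10.2% of the exon bases of Patz1 and 2.07% of those of Zbtb7b, with at most 27 counts in a library, and the strand setting of the counting is not given in the sources used here.

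**Figure D2:**
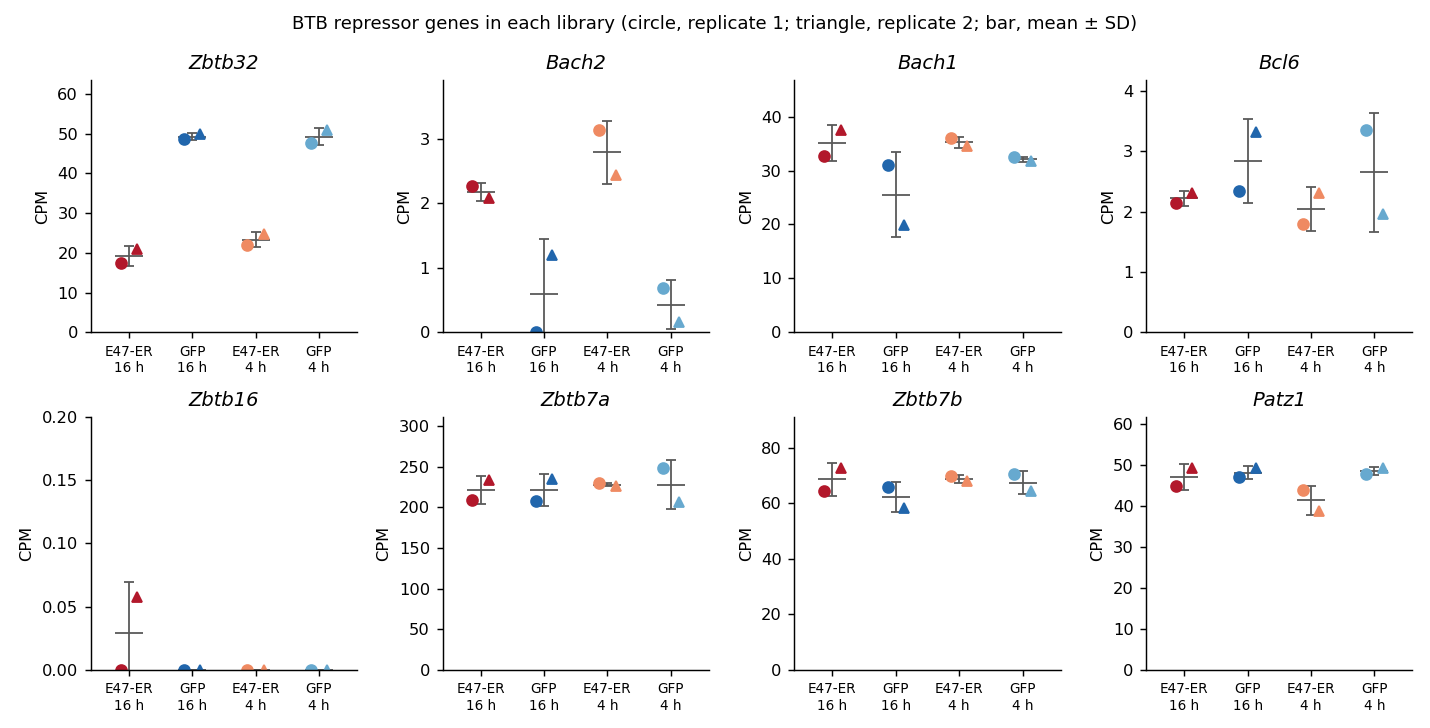
CPM of each of the 8 genes in every library, by group (circle, replicate 1; triangle, replicate 2; bars, mean ± SD of 2 libraries; each panel has its own axis from 0). Zbtb32 is low in the 4 E47-ER libraries (17.5 to 24.8 CPM), Bach2 is low in the 4 GFP libraries (0 to 1.20 CPM), and Zbtb7a, Zbtb7b and Patz1 have their 8 libraries close together.

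Across all 8 libraries the coefficient of variation of the CPM was 6.86% for Zbtb7a, 6.7% for Zbtb7b, 7.93% for Patz1, 16.6% for Bach1, 24% for Bcl6, 42.8% for Zbtb32 and 76.9% for Bach2. In edgeR's fit over all genes, 1 of the 7 members fitted, Zbtb32, passed an adjusted p of 0.05 in the lower direction at 16 h, where 0.337% of genes did, and also at 4 h, where 0.0147% did. No member passed in the higher direction, where 1.25% of genes did at 16 h and 0.271% at 4 h. Since the members were picked on this contrast, nothing is read from these counts, nor from member calls in other fits. The libraries of E47-ER and GFP cells did not overlap for 4 of the 7 members at 16 h (Zbtb32, Bach2, Bach1 and Bcl6), against 54.3% of all genes fitted, and for 4 of 7 at 4 h (Zbtb32, Bach2, Bach1 and Patz1), against 45.4%. With no filter on low counts Bach2 passed as higher at both times, among 927 genes called higher at 16 h and 127 at 4 h. With only the 4 libraries of 4 h it passed as higher then, among 276 genes. Without replicate 2 of GFP at 16 h nothing is read from Bach2 at 16 h, since the GFP library left had 0 counts of it. Zbtb32 did not pass at 16 h with only the 4 libraries of that time or without either E47-ER library of 16 h, nor at 4 h without any 1 library other than a GFP library of 16 h. The difference between the effects at 16 h and 4 h was -0.28 (SE 0.20) for Zbtb32, -0.47 (SE 1.44) for Bach2 and 0.31 (SE 0.28) for Bach1 on the log2 scale.

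**Figure D3:**
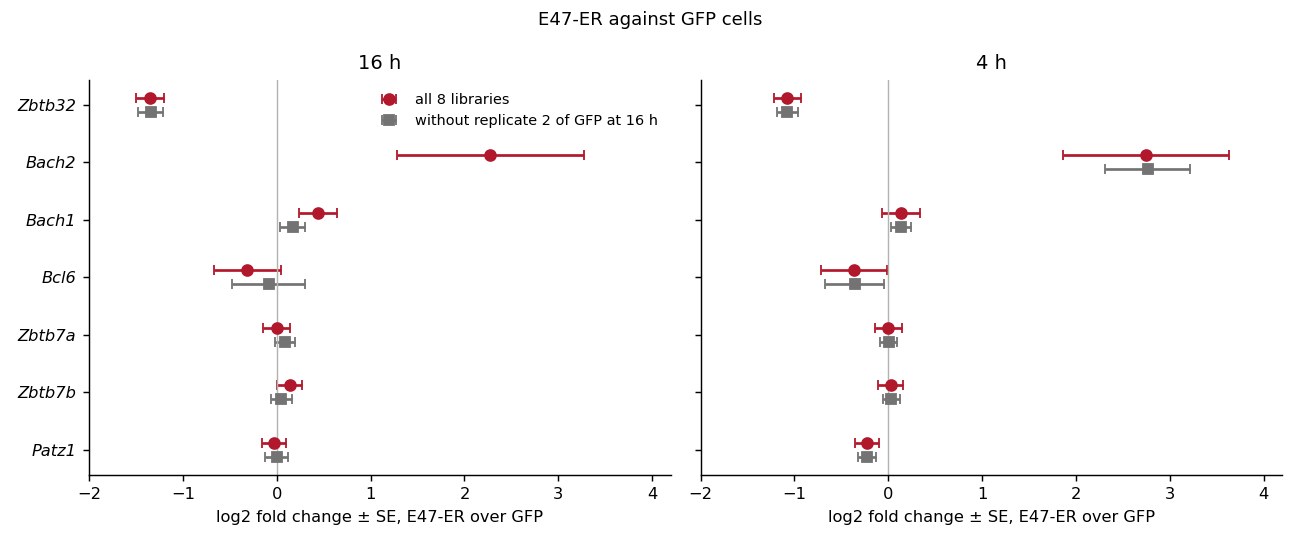
Fitted log2 fold change of E47-ER over GFP with its SE for the 7 members fitted, at 16 h (left) and 4 h (right), with all 8 libraries (circles) and without replicate 2 of GFP at 16 h (squares). Zbtb32 lies near -1.35 at 16 h and -1.08 at 4 h with either set, and the square for Bach2 at 16 h is left out because its remaining GFP library had 0 counts.

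Change over time within each kind of cell was not used to pick the genes and was tested. No member passed in E47-ER cells at 16 h against 4 h, where 0.0147% of genes did. Zbtb32 had 17.5 and 21.01 CPM at 16 h, against 21.9 and 24.8 CPM at 4 h, so both later libraries were below both earlier ones. Its log2 fold change was -0.28 (SE 0.15), with an adjusted p of 0.999 in edgeR's quasi-likelihood test, and of 0.209 without replicate 2 of GFP at 16 h. Bach2 was -0.36 (SE 0.72, adjusted p 1 in edgeR), and its later libraries also lay below the earlier ones. Patz1 was 0.19 (SE 0.13, adjusted p 1 in edgeR), with both later libraries above the earlier ones. Times did not overlap for these 3 of the 7 members, against 50.4% of all genes fitted. Bach1, Zbtb7a and Zbtb7b were within 0.05 of 0, and Bcl6 was 0.12 (SE 0.35).

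In GFP cells, 16 h against 4 h gave no call for any member, and 0% of all genes passed in edgeR (1238 at an unadjusted p under 0.05, and 0 adjusted calls in DESeq2). Zbtb32 differed by 0.00 (SE 0.14) on the log2 scale, its libraries at 48.7 and 49.8 CPM at 16 h, against 47.7 and 50.8 CPM at 4 h. Bach2 was 0.10 (SE 1.24, adjusted p 0.973 in edgeR), a range too wide to show a change of several fold in either direction. Bach1 was -0.31 (SE 0.20, adjusted p 0.53 in edgeR), and this rested on which GFP library at 16 h was kept. It was -0.71 (adjusted p 0.000725 in edgeR, called) with replicate 2 alone, a fit in which 20.4% of all genes were called lower, and -0.05 (adjusted p 0.964) with replicate 1 alone. Bach1 was the 1 member of 7 whose times did not overlap in GFP cells, against 36.6% of genes. Bcl6, Zbtb7a, Zbtb7b and Patz1 were at 0.07, -0.04, -0.11 and -0.01, each with an adjusted p of at least 0.695 in edgeR.

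The wider BTB zinc finger family held no called gene. Of 41 further family genes, 38 were fitted, and 0 passed in either direction at 16 h or 4 h. Over all genes 1.25% were called higher and 0.337% lower at 16 h, and 0.271% and 0.0147% at 4 h. The family's median log2 fold change was 0.03 at 16 h (0.01 without replicate 2 of GFP) and 0.06 at 4 h, against -0.01 and 0.00 over all genes fitted. At 16 h the smallest p belonged to Zbtb37 at 0.82 (SE 0.24, adjusted p 0.134 in edgeR) and Zbtb33, which encodes the methyl-DNA reader Kaiso, at 0.66 (SE 0.22, adjusted p 0.153). At 4 h they belonged to Hic1 at -0.61 (SE 0.15, adjusted p 0.297 in edgeR) and Zbtb7c at -0.82 (SE 0.27, adjusted p 0.598). Hic1 had 22.8 and 23.4 CPM in E47-ER cells, against 33.2 and 26.9 CPM in GFP cells at 16 h, and 23.2 and 22.9 CPM in E47-ER cells, against 34.0 and 36.3 CPM in GFP cells at 4 h. All 4 E47-ER libraries were thus below all 4 GFP libraries, and without replicate 2 of GFP at 16 h Hic1 was called lower at both times (adjusted p 0.0103 at 16 h and 0.00084 at 4 h in edgeR). In that fit, 0 family genes were called higher and 1 lower at 16 h, beside 4.39% and 4.53% of all genes, and 0 higher and 2 lower at 4 h, beside 2.64% and 1.68%.

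Corepressor genes that serve BTB factors were likewise not called with all libraries. All 22 were fitted and 0 passed at either time. The shares over all genes were 1.25% called higher and 0.337% lower at 16 h, and 0.271% and 0.0147% at 4 h. Their median was 0.11 at 16 h (0.0257 without replicate 2 of GFP) and -0.02 at 4 h for the 22 genes. Calls of corepressor genes, Ctbp2 and Bcor among them, depended on the libraries kept. Ncor1, a scaffold of the HDAC3 complex, had a log2 fold change of 0.01 (SE 0.13) at 16 h and 0.00 (SE 0.13) at 4 h. Bcor had 0.11 (SE 0.18) and -0.28 (SE 0.18), and Hdac3 -0.25 (SE 0.18) and 0.07 (SE 0.18), in the same order. Without replicate 2 of GFP at 16 h the 16 h values were -0.14 for Bcor and 0.01 for Hdac3. Cul3, the ubiquitin ligase scaffold that some BTB proteins bind, had 0.37 (SE 0.15, adjusted p 0.186 in edgeR) at 16 h and -0.06 (SE 0.15) at 4 h. The smallest p at 16 h belonged to Ctbp2 at -0.77 (SE 0.20, adjusted p 0.115 in edgeR) and Hdac2 at -0.33 (SE 0.12, adjusted p 0.162).

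Partners of BACH proteins came next: 14 of 15 genes for small MAF, CNC and AP-1 factors were fitted and 0 passed at either time. Over all genes 1.25% were called higher and 0.337% lower at 16 h, and 0.271% and 0.0147% at 4 h. Their median was -0.05 at 16 h and -0.08 at 4 h for this list, and 0.03 and -0.08 without replicate 2 of GFP at 16 h. Whether genes of the list passed, Mafg and Irf4 among them, depended on the libraries kept. Mafg, a small MAF partner, had 137 and 143.8 CPM in E47-ER cells, against 177.9 and 203.3 CPM in GFP cells at 16 h, a log2 fold change of -0.44 (SE 0.12, adjusted p 0.124 in edgeR). Its value at 4 h was -0.18 (SE 0.12). Mafk was 0.27 (SE 0.17) at 16 h and 0.15 (SE 0.17) at 4 h. Nfe2l2, which encodes NRF2, the activator that competes with BACH1 for its sites, was 0.11 (SE 0.12) at 16 h and -0.02 (SE 0.12) at 4 h. Irf4 was -0.84 (SE 0.27, adjusted p 0.144 in edgeR) at 16 h.

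Of 17 heme and redox genes that BACH1 is known to bind, 16 were fitted, and at 16 h 1 rose and 1 fell, beside 1.25% of genes called higher and 0.337% lower. The genes of this list that passed depended on the libraries kept. Osgin1, an oxidative stress response gene, had 32.0 and 33.8 CPM in E47-ER cells, against 18.3 and 14.6 CPM in GFP cells at 16 h, a log2 fold change of 0.98 (SE 0.17, adjusted p 0.0299 in edgeR). Slc7a11, the cystine transporter gene, had 4.47 and 3.29 CPM in E47-ER cells, against 13.4 and 9.85 CPM in GFP cells at 16 h, a log2 fold change of -1.60 (SE 0.26, adjusted p 0.0271 in edgeR). E47-ER and GFP libraries did not overlap for either gene. Both calls were lost without any 1 library other than a GFP library of 16 h (adjusted p up to 0.323 for Osgin1 and 0.332 for Slc7a11 in edgeR), and with only the 4 libraries of 16 h (0.332 and 0.296), while the log2 fold changes stayed at 0.84 to 1.19 for Osgin1 and -1.82 to -1.33 for Slc7a11 without 1 library. At 4 h none of the 16 was called, beside 0.271% of genes called higher and 0.0147% lower. Slc7a11 was then -1.67 (SE 0.26, adjusted p 0.0608 in edgeR) and Osgin1 0.15 (SE 0.16). Hmox1, the heme oxygenase gene and best known BACH1 target, was -0.65 (SE 0.21, adjusted p 0.149 in edgeR) at 16 h and -0.21 (SE 0.21) at 4 h. The median of the list was -0.15 at 16 h (-0.20 without replicate 2 of GFP) and -0.16 at 4 h, against -0.01 and 0.00 over all genes fitted. Of the 16 values, 3 were above 0 at 16 h and 4 at 4 h.

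Of 25 lymphocyte genes that BCL6 or BACH2 is known to repress in B or T cells, 24 were fitted and 1 was called higher at 16 h, beside 1.25% of genes. That was Ccr9, a chemokine receptor gene, with 30 and 29 counts in E47-ER cells, against 4 and 2 counts in GFP cells, a log2 fold change of 2.74 (SE 0.47, adjusted p 0.0312 in edgeR). No GFP library had more than 6 counts of Ccr9, which passed the filter on low counts through its E47-ER libraries, so nothing is read from this call. The call was lost without any 1 library other than a GFP library of 16 h (adjusted p up to 0.266) and with only the 4 libraries of 16 h (0.262). At 4 h Ccr9 was 1.20 (SE 0.45, adjusted p 0.734 in edgeR). None of the 24 passed then, beside 0.271% of genes called higher and 0.0147% lower. Prdm1, which encodes BLIMP1, had 82.5 and 89.6 CPM in E47-ER cells, against 95.1 and 49.4 CPM in GFP cells at 16 h. Those groups overlapped, and the log2 fold change of 0.24 (SE 0.28) at 16 h became -0.15 without replicate 2 of GFP. At 4 h Prdm1 was -0.36 (SE 0.28, adjusted p 1 in edgeR). Id2 at 0.86 (SE 0.21, adjusted p 0.332 in edgeR) and Myc at -0.80 (SE 0.20, adjusted p 0.359) had the smallest p at 4 h. The median of the list was 0.24 at 16 h (0.1127 without replicate 2 of GFP) and 0.14 at 4 h, against -0.01 and 0.00 over all genes fitted. Calls within this list, in both directions, depended on the libraries kept.

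No gene of the type 2 cytokine loci or their regulators, where ZBTB32 and GATA3 act in mouse T cells, was called with all libraries. Of 14 genes, 13 were fitted. Over all genes, 1.25% were called higher and 0.337% lower at 16 h, and 0.271% and 0.0147% at 4 h. The median log2 fold change of the list was -0.46 at 16 h and -0.11 at 4 h, while it was -0.14 at 16 h without replicate 2 of GFP. Il13 had 5615 and 5830 CPM in E47-ER cells, against 8064 and 9851 CPM in GFP cells at 16 h, a log2 fold change of -0.65 (SE 0.15, adjusted p 0.0898 in edgeR). Il5 was -0.83 (SE 0.22, adjusted p 0.114 in edgeR) at 16 h, and at 4 h Il13 was -0.36 (SE 0.15) and Il5 -0.47 (SE 0.22). For both cytokine genes all 4 E47-ER libraries were below all 4 GFP libraries. Within a time, groups did not overlap for 54.3% of all genes fitted at 16 h and 45.4% at 4 h, and the share over both times together was not counted. Leaving out 1 library at a time gave -0.76 to -0.50 for Il13 and -1.08 to -0.50 for Il5 at 16 h. At 4 h the ranges were -0.40 to -0.32 for Il13 and -0.63 to -0.28 for Il5. Whether either gene was called depended on the library left out. The 9851 CPM of Il13 came from replicate 2 of GFP at 16 h, the library that stood apart. Gata3 itself was -0.43 (SE 0.21, adjusted p 0.249 in edgeR) at 16 h and -0.18 (SE 0.21) at 4 h, and -0.08 at 16 h without replicate 2 of GFP.

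Of 14 genes around ThPOK and RUNX factors, 10 were fitted and 1 rose at 16 h, beside 1.25% of genes called higher. None of the 10 passed at 4 h, beside 0.271% of genes called higher and 0.0147% lower. The list's median was 0.05 at 16 h and -0.07 at 4 h, and 0.18 and -0.07 without replicate 2 of GFP at 16 h. Which of the 10 passed depended on the libraries kept. The gene called with all libraries was Tcf7, which encodes the lymphoid factor TCF-1, with 16.7 and 19.2 CPM in E47-ER cells, against 1.81 and 1.06 CPM in GFP cells, a log2 fold change of 3.55 (SE 0.35, adjusted p 0.00414 in edgeR). It was not called without replicate 2 of E47-ER at 16 h (adjusted p 0.0535) or with only the 4 libraries of 16 h (0.0768). Its value at 4 h was 1.71 (SE 0.32, adjusted p 0.126 in edgeR). Runx3, which silences Cd4 in T cells, was 0.16 (SE 0.14) at 16 h and 0.19 (SE 0.14) at 4 h. Cd4, the gene that ThPOK keeps on in T cells, had 1 to 6 counts in a library and was not fitted, while Zbtb7b transcripts stood at 58.5 to 72.8 CPM.

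**Figure D4:**
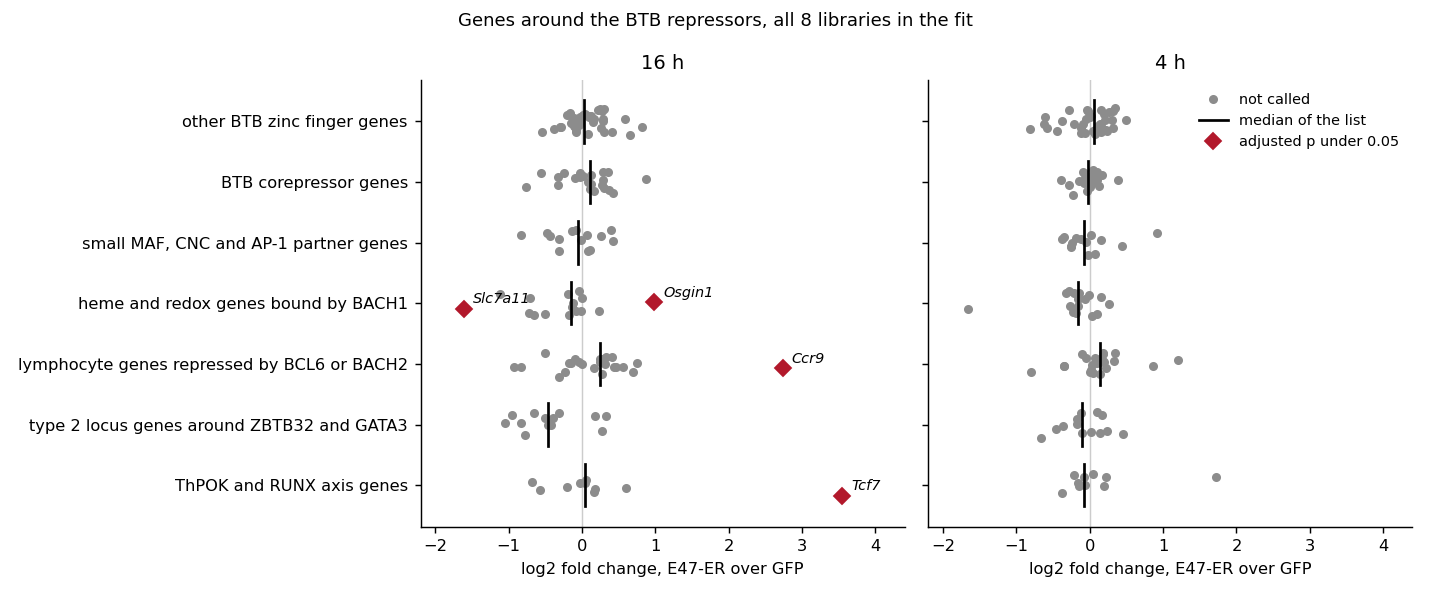
Fitted log2 fold change of E47-ER over GFP for every fitted gene of 7 lists around the BTB repressors, at 16 h (left) and 4 h (right); grey points were not called, red diamonds had an adjusted p under 0.05 in edgeR, and black bars mark each list's median. The 4 diamonds at 16 h are Slc7a11, Osgin1, Ccr9 and Tcf7, and there are none at 4 h.

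Genes whose levels followed Zbtb32 most closely were ranked by Pearson's r of log2 CPM over the 8 libraries among 8737 fitted genes with a mean log2 CPM of at least 3. They were Chpf (r = 0.989), the glucose transporter gene Slc2a1 (0.975), the adenylate kinase gene Ak4 (0.97), the pyruvate kinase gene Pkm (0.966) and Ahcy (0.965). Like Zbtb32, each was lower in every E47-ER library than in every GFP library: Ak4 had 28.3 and 27.1 CPM in E47-ER cells, against 52.7 and 49.9 CPM in GFP cells at 16 h. For Bach2 they were Ubn1 (0.982), Btg2 (0.957), Rb1cc1 (0.951), the DNA ligase gene Lig4 (0.939) and P2ry10 (0.938), ranked likewise. Lig4 had 18.6 and 20.7 CPM in E47-ER cells, against 8.06 and 15.1 CPM in GFP cells at 16 h, with the higher GFP value in replicate 2, as for Bach2. Without that library Chpf and Ubn1 each ranked 4, and the other 4 genes of each list ranked between 26 and 92. Between members, r was -0.78 for Zbtb32 with Bach2 (-0.88 over 7 libraries) and 0.89 for Bach1 with Zbtb7b (0.76). These coefficients describe 8 points in 4 groups that share their libraries and scaling, and carry no test.

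**Figure D5:**
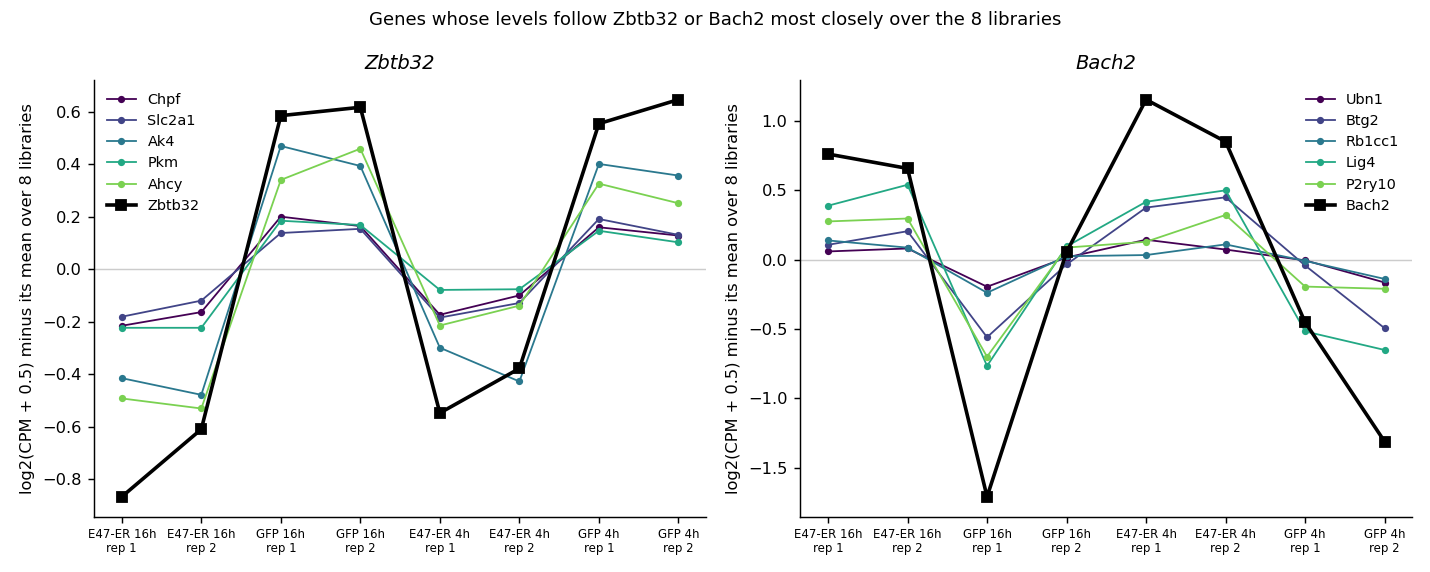
Level of Zbtb32 (left) and Bach2 (right) in each library with the 5 genes most alike to each, as log2(CPM + 0.5) minus the gene's mean over the 8 libraries (lines only join the points of a gene). The Zbtb32 curves are low in the 4 E47-ER libraries and high in the 4 GFP libraries, and the Bach2 curves run the other way, with replicate 2 of GFP at 16 h above replicate 1.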

How the data were processed

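Total RNA of 8 thymic ILC2 libraries was sequenced. The values are raw counts as deposited by the authors, 1 whole number per Ensembl gene and library, with no normalization. The submitters' processing notes name mm10 as the build and DESeq2 as a tool without saying what it did. For the aligner, counting tool, annotation and strand setting, the entry is "not given in the sources used here". Of 50686 gene rows, 50462 matched GENCODE M21 (GRCm38), which gave symbols, coordinates and merged exon lengths. Promoter windows came from RefSeq (GRCm38.p6).

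Counts were fitted in R 4.3.3 with edgeR 4.0.16: filterByExpr with a minimum count of 10 (13644 genes), TMM scaling, 1 mean per group over all 8 libraries, robust quasi-likelihood, two-sided tests and Benjamini-Hochberg adjustment over all genes within each comparison, called at an adjusted p under 0.05. The 2 E47-ER against GFP comparisons share no library, while each time comparison shares its libraries with both. Standard errors are the size of the log2 fold change over the square root of F. Python 3.11.15 with matplotlib 3.10.9 drew the figures, and the fit was tested on simulated data. The members, the 7 gene lists and the marker lists were chosen with earlier results of these data known. Named by rule were the members, Esr1, Tcf3, 14 genes these factors regulate or pair with (another is not reported here), from each list the called genes (up to 6) or else the 2 with the smallest p, and the 5 genes most like Zbtb32 and Bach2. The genes next to Zbtb32 were chosen by position, and Bach2os and the other overlapping genes by their exons. Alternatives were DESeq2 1.42.0, RLE scaling, no filter, a minimum count of 30, no robust dispersion, a replicate block, only the 4 libraries of a time, and leaving out each library in turn, which takes the spread of a lone library from the rest. Separate mice or cultures per replicate are not stated in the labels: the p-values reflect the variation among these 8 libraries, and it may be technical.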

Additional observations from a re-analysis of the deposited data

How the results depend on the processing

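Zbtb32 kept its lower sign in E47-ER cells under each alternative run, with log2 fold changes of -1.48 to -1.22 at 16 h and -1.17 to -0.99 at 4 h when each library was left out in turn; Bach2 kept its higher sign, with 0.87 to 8.11 and 1.99 to 4.07. The 8.11, like the -5.72 given below for Bach2 over time, is a fit against a library with 0 counts and is no bound. The count of all genes called depended on the fit. At 16 h it was 217, against 1053 with DESeq2 (437 higher and 616 lower, where the main split was 171 and 46), 1816 with no filter (927 and 889), 54 with a replicate block, 6 with only the 4 libraries of that time, and 15 to 7022 without 1 library. At 4 h it was 39, against 121 with DESeq2, 165 with no filter (127 and 38), 11 with a replicate block, 442 with only the 4 libraries of that time (276 and 166), and 1 to 619 without 1 library. Over time in E47-ER cells it was 2, against 24 with DESeq2, 53 with no filter, 0 with a minimum count of 30, 0 with a replicate block, and 0 to 440 without 1 library. Over time in GFP cells it was 0, against 305 with no filter and 0 to 6034 without 1 library, and for the difference of the effects 0, against 53 with no filter and 0 to 5124. The high ends came without replicate 1 of GFP at 16 h, and leaving out any other single library moved the count at 16 h to between 15 and 1262 and that at 4 h to between 1 and 612. The cause of these shifts was not tested. Deviations of same-numbered libraries correlated between groups at -0.09 at 16 h and 0.02 at 4 h, so the numbers were not taken as pairs; under the block Zbtb32 was called at 16 h and no longer at 4 h, and no member was newly called. The block also ended the calls of Slc7a11 (adjusted p 0.0574), Osgin1 (0.117) and Ccr9 (0.121) at 16 h. Of 66 tests of E47-ER against GFP for named genes outside the 8, 7 were called; DESeq2 called 16 of 65, the fit with no filter 21, a minimum count of 30 called 6 of 64, a replicate block 3, only the 4 libraries of a time 11, and leaving out 1 library 2 to 33, the most without replicate 1 of GFP at 16 h.

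Some log2 changes turned sign, with a cause not tested. Zbtb32 over time in GFP cells was 4e-04 with DESeq2, 7e-04 with RLE scaling, 0.0011 with a minimum count of 30, 0.003 with a replicate block and -0.0527 to 0.0311 without 1 library. Bach1 over time in E47-ER cells was 8e-04 with a replicate block. With no filter Bcl6 over time in GFP cells was -0.0069, Ncor1 at 4 h -0.0084, Zbtb7c at 16 h 0.0322 and Srxn1 at 16 h 0.0164. Ncor1 at 4 h was -6e-04 with only the 4 libraries of that time, and Zbtb7c at 16 h was 0.0025 with a replicate block. Leaving out 1 library at a time gave these ranges. Over time in GFP cells they were Bach2 -5.72 to 1.52, Bcl6 -0.29 to 0.50, Zbtb7a -0.19 to 0.0892 and Patz1 -0.0489 to 0.0005. Over time in E47-ER cells they were Bach1 -0.10 to 0.0894, Bcl6 -0.049 to 0.31, Zbtb7a -0.12 to 0.0355 and Zbtb7b -0.0925 to 0.0833. At 16 h they were Prdm1 -0.15 to 0.82, Ncor1 -0.0772 to 0.13, Bcor -0.14 to 0.43, Hdac3 -0.46 to 0.0101, Zbtb7c -0.14 to 0.16, Nfe2l1 -0.29 to 0.0456, Srxn1 -0.14 to 0.075 and Myc -0.57 to 0.0312. At 4 h they were Hmox1 -0.50 to 0.13, Nfe2l2 -0.0638 to 0.0177, Ncor1 -0.0242 to 0.0252 and Hdac3 -0.0238 to 0.16. Depth limits Bach2, Bcl6 and Zbtb16, with at most 53 counts in a library.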

Other observations

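Markers of other cells gave these summed levels. The 13 ILC2 markers took 21710 to 22160 CPM in E47-ER and 25170 to 31150 CPM in GFP cells at 16 h, and 23390 to 23730 CPM in E47-ER and 25680 to 27560 CPM in GFP cells at 4 h. Among them Rora and Ptprc were called higher in E47-ER cells at 16 h in edgeR, beside 1.25% of genes called higher and 0.337% lower. None was called at 4 h, beside 0.271% higher and 0.0147% lower. The 5 NK and ILC1 markers, nearly all of it Gzma, took 6373 to 7895 CPM in E47-ER and 2887 to 7493 CPM in GFP cells at 16 h, and 5270 to 7886 CPM in E47-ER and 3024 to 3498 CPM in GFP cells at 4 h. The 8 myeloid markers took 22.6 to 29.0 CPM in E47-ER and 14.6 to 17.6 CPM in GFP cells at 16 h, and 19.3 to 25.04 CPM in E47-ER and 18.5 to 20.5 CPM in GFP cells at 4 h. The 5 dendritic cell markers took 73.5 to 77.7 CPM in E47-ER and 83.7 to 169.5 CPM in GFP cells at 16 h, and 72.5 to 89.0 CPM in E47-ER and 89.2 to 90.6 CPM in GFP cells at 4 h. The 5 thymic epithelial markers took 20.7 to 22.7 CPM in E47-ER and 6.05 to 9.06 CPM in GFP cells at 16 h, and 10.3 to 13.8 CPM in E47-ER and 5.12 to 7.08 CPM in GFP cells at 4 h, most of it Epcam, which was called higher at 16 h. The 3 erythroid markers stayed under 0.576 CPM in every library, with Hbb-bs at 0. No B cell, T cell, myeloid or dendritic marker was called with all libraries. Marker calls, also those of ILC2, T cell, myeloid and dendritic markers, depended on the libraries kept.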
